A study of Mus musculus with 6 samples.

Results

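The expression of 10 marker genes of macrophages and monocytes was compared between mouse libraries labelled as aorta. They were taken by gene name from the 33919 genes of the deposited table and fall into 4 roles. Adgre1 and Csf1r mark macrophages in general, Lyz2 and Cd14 mark myeloid cells, Plac8 and Ly6c2 mark monocytes, and Mrc1, Cd163, Lyve1 and F13a1 mark macrophages resident in tissue. All 10 were among the 16620 genes with enough counts to be tested. Poly(A) RNA had been sequenced from 3 libraries of mice labelled KO and 3 of mice labelled WT, and both groups had received angiotensin II (Ang II), which constricts arteries and drives remodelling of their wall. The series title names endothelial OTUD1, which removes ubiquitin from proteins, and SMAD3, which carries TGF-beta signals to the nucleus. The comparison thus set Ang II-treated tissue of one genotype against that of the other. The labels give the genotype only as KO or WT, and they give neither the allele, the cells in which it acts, the strain and age of the mice nor the dose and duration of Ang II. Mice without Ang II were not analysed here. The design text counts 3 mice in each group, but no label identifies the animal, so p-values rest on the spread among these libraries, which may be technical.

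Macrophages are phagocytes that clear debris and microbes and shape the tissue they live in. Some renew themselves in the tissue from early life, and in the wall and surroundings of vessels many of these carry the receptors encoded by Mrc1, Cd163 and Lyve1. Others come from blood monocytes, which in mice carry Ly6C on their surface when freshly recruited, and infusion of Ang II is known to draw monocytes into the arterial wall.

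Otud1, the gene of the protein named in the series title, was higher in the libraries labelled KO. In CPM (counts scaled to the size of each library), Otud1 stood at 14.5, 15.6 and 16.8 in the libraries labelled KO, against 8.83, 11.6 and 9.83 in those labelled WT, a log2 fold change of 0.63 (SE 0.12, adjusted p = 0.0039 by edgeR's quasi-likelihood test). The sources used here do not give the deleted part of the gene, so the groups are named by their labels throughout. Totals ran from 65292876 to 71525109 counts in the libraries labelled KO and from 62335027 to 70494899 in those labelled WT. The tissue label sits beside much skeletal muscle RNA: 10 markers of muscle fibres summed to 26400 to 27300 CPM in the libraries labelled KO and 20400 to 20900 CPM in those labelled WT, while 8 smooth muscle markers summed to 177 to 181 CPM in the libraries labelled KO and 543 to 551 CPM in those labelled WT. The sum over 8 fibroblast markers was 163 to 181 CPM in the libraries labelled KO and 521 to 551 CPM in those labelled WT, and that over 7 hepatocyte markers was 8.79 to 10.5 CPM in the libraries labelled KO and 88 to 90.6 CPM in those labelled WT. The sum over 7 endothelial markers was 423 to 431 CPM in the libraries labelled KO and 395 to 416 CPM in those labelled WT. The part of this tissue makeup in the marker results was not tested. In bulk RNA, fewer cells of a type and less RNA per cell cannot be told apart.

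Most of the 10 markers were lower in the libraries labelled KO, and they did not move by the same amount. Plac8 fell 4.89-fold, while Adgre1, Csf1r, Lyz2 and Mrc1 fell by 0.71 to 0.80 on the log2 scale. Cd163 fell by 0.41, the groups overlapped for Lyve1 and F13a1, neither of which passed the test, and Ly6c2 went the other way in 2 of 3 libraries. By edgeR's test with Benjamini-Hochberg adjustment over all tested genes, 6 markers were lower, 1 was higher and 3 did not pass an adjusted p of 0.05. Over all tested genes 22% passed, 10.5% lower and 11.5% higher. DESeq2 called 7 of the 10 markers lower and 0 higher, where it called 31.0% of all genes and 15.5% lower. On deposited FPKM, limma called 5 of the 8 it tested lower and 0 higher, where it called 40.9% of all genes and 8.37% lower. In 6 of the 10 markers all KO libraries lay below all WT libraries, as in 19.4% of tested genes, and in 0 all lay above, as in 19.3%; the groups did not overlap in either direction in 38.6% of tested genes. The median log2 fold change of the 10 markers was -0.72, against -0.02 for all tested genes. Summed over the 10, the libraries labelled KO held 136 to 142 CPM and those labelled WT held 203 to 222 CPM.

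**Figure D1:**
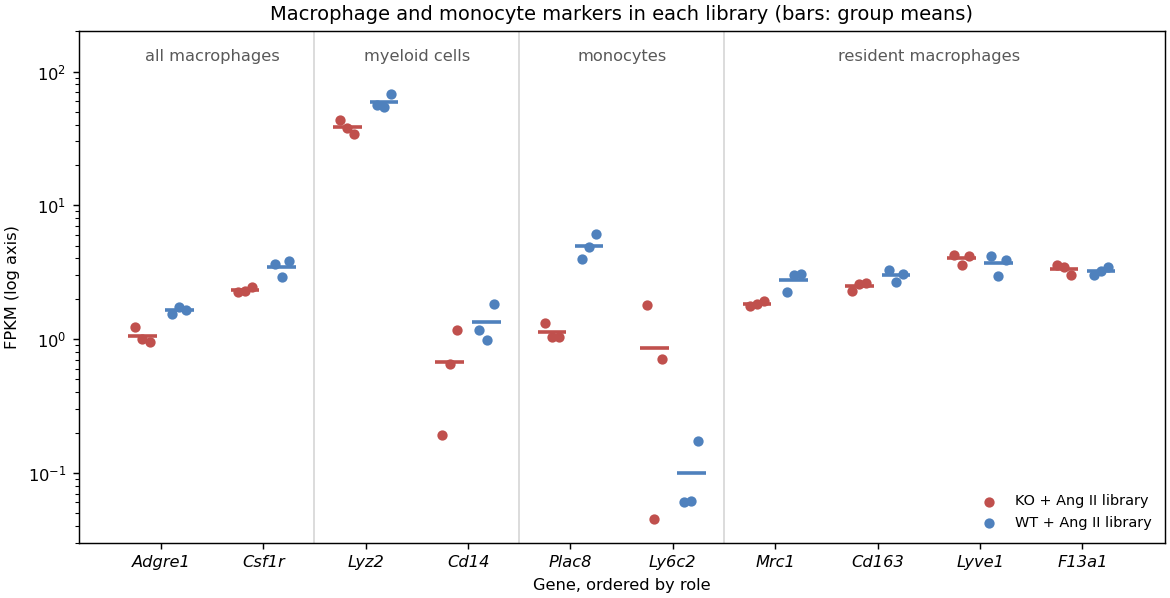
Deposited FPKM (fragments scaled by gene length and library depth, log axis) of each marker in each library, with KO libraries in red left of WT libraries in blue and bars at the group means. Lyz2 sits far above the others, Plac8 is separated most clearly, and the KO libraries spread over more than an order of magnitude for Ly6c2.

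**Figure D2:**
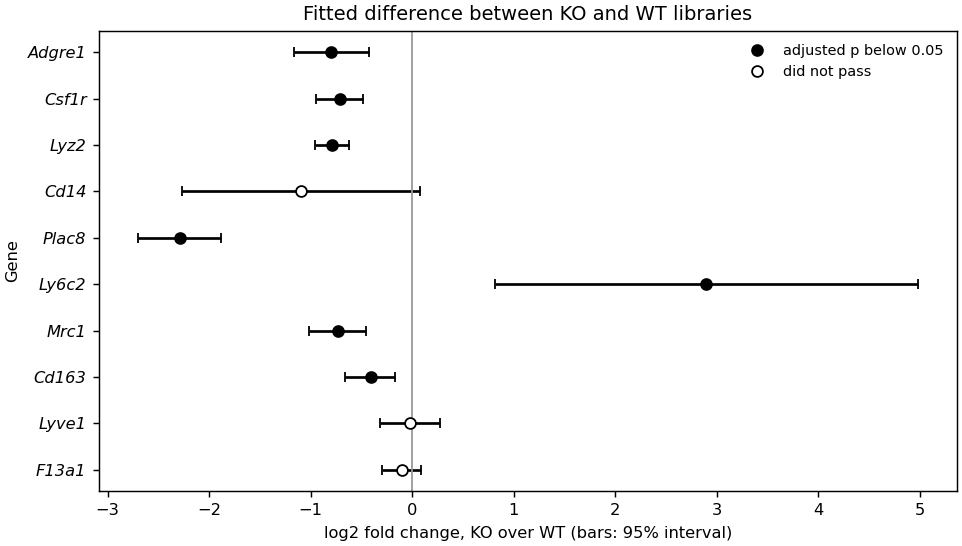
Fitted log2 fold change of each marker, KO over WT, with its 95% interval from edgeR's quasi-likelihood fit. Filled points passed an adjusted p of 0.05, and the intervals of Cd14 (-2.27 to 0.08) and Ly6c2 (0.82 to 4.98) are the widest.

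Adgre1 and Csf1r, the general macrophage markers, were both lower. Adgre1 (ENSMUSG00000004730, chromosome 17, 57358691 to 57483527, plus strand, GRCm38) encodes F4/80, the adhesion receptor used to stain mouse macrophages. It had 283, 252 and 241 counts in the libraries labelled KO and 393, 415 and 371 in those labelled WT. Scaled, these are 3.97, 3.45 and 3.32 CPM in KO libraries against 5.85, 6.90 and 5.93 CPM in WT libraries, and the groups did not overlap. The log2 fold change was -0.80 (SE 0.17, 1.74-fold lower, adjusted p = 0.0055). Csf1r (ENSMUSG00000024621) encodes the receptor through which CSF1 keeps macrophages alive. Its levels were 13.1, 14.1 and 15.3 CPM in the libraries labelled KO, against 24.6, 20.4 and 24.7 CPM in those labelled WT. Again no KO library reached the lowest WT library. Csf1r fell by 0.71 on the log2 scale (SE 0.11, 1.64-fold lower, adjusted p = 0.00074). Both calls held when any single library was left out, with adjusted p of 0.026 or less.

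Lyz2, which encodes the lysozyme of macrophages and neutrophils, was the most abundant of the 10. Its gene lies on chromosome 10 (ENSMUSG00000069516, 117277331 to 117282321, minus strand, GRCm38), next to its close copy Lyz1 (117287797 to 117292868). Deposited FPKM of Lyz2 was 43.3, 37.6 and 33.9 in the libraries labelled KO and 56.5, 54.7 and 67.4 in those labelled WT, with no overlap. It fell by 0.79 on the log2 scale (SE 0.08, 1.73-fold lower, adjusted p = 3.4e-05). Lyz1 went the other way, with 421, 304 and 346 counts in the libraries labelled KO and 175, 226 and 164 in those labelled WT (log2 fold change 0.72, SE 0.22, adjusted p = 0.038). The Lyz1 call was lost without the first or the third library of either group (adjusted p up to 0.16). The sources used here do not say how reads shared by the copies were counted, so a stretch of each is shown to let the likeness be seen. The coding sequences differ at 22 of 447 bases (95.1% identical), and 15.4% of the 50-base windows of the Lyz2 transcript also occur in Lyz1 transcripts. Coding bases 37 to 156 of each, the stretch of this length with the most differences, read as follows from GENCODE M21 on GRCm38, with capitals at the 14 differing bases.
Lyz2: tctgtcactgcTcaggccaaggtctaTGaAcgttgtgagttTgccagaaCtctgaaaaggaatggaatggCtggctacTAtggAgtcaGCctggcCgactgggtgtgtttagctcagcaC
Lyz1: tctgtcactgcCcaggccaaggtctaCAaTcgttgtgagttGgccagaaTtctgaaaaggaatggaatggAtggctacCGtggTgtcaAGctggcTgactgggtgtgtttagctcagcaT
Lyz2 counts were far above those of Lyz1 in each library, at 4087, 3835 and 3495 in the libraries labelled KO and 5843, 5271 and 6148 in those labelled WT. Lyz2 is also made by neutrophils and by type II cells of the lung. Neutrophil markers ran opposite to Lyz2: 5 of 7 tested were higher and 1 lower, beside 11.5% higher and 10.5% lower among all tested genes. The 10 listed summed to 27 to 30.5 CPM in the libraries labelled KO against 5.1 to 6.21 CPM in those labelled WT. Type II cell markers were near the detection limit, summing over 6 genes to 0.895 to 1.48 CPM in the libraries labelled KO against 2.71 to 3.6 CPM in those labelled WT, with 1 of 3 tested lower.

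Cd14 (ENSMUSG00000051439, on chromosome 18 like Csf1r), the co-receptor that hands lipopolysaccharide to TLR4, varied widely. It had 24, 88 and 160 counts in the libraries labelled KO and 160, 126 and 221 in those labelled WT. The first KO library stood far below the other two, and the third equalled the first WT library in counts. The log2 fold change was -1.10 (SE 0.53, 95% interval -2.27 to 0.08, adjusted p = 0.18), so a difference was not resolved. Without the third KO library it was -1.79 (adjusted p = 0.047), without the first KO library -0.65 (adjusted p = 0.3), and DESeq2 gave an adjusted p of 0.044.

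Plac8 showed the clearest difference of the 10. It encodes a small cysteine-rich protein abundant in monocytes and in other leukocytes and epithelia, and lies on chromosome 5 (ENSMUSG00000029322, 100553725 to 100572245, minus strand, GRCm38). Counts were 150, 130 and 129 in the libraries labelled KO and 501, 569 and 674 in those labelled WT. In CPM these are 2.11, 1.78 and 1.78 in KO libraries against 7.46, 9.47 and 10.8 in WT libraries. The highest KO library was far below the lowest WT library. Plac8 fell by 2.29 on the log2 scale (SE 0.19, 95% interval -2.70 to -1.88, 4.89-fold lower, adjusted p = 8.8e-06), and by 2.16 to 2.42 when any 1 library was left out. By deposited FPKM it was the seventh most abundant of the 10 in the libraries labelled KO (1.13 ± 0.156, SD, n = 3) and the second in those labelled WT (4.99 ± 1.06, SD, n = 3).

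Ly6c2, the gene of the Ly6C2 antigen of recruited monocytes, did not follow Plac8. It lies on chromosome 15 (ENSMUSG00000022584, 75108158 to 75111970, minus strand, GRCm38) and had 356, 10 and 155 counts in the libraries labelled KO, against 14, 13 and 34 in those labelled WT. The first and the third KO libraries were far above every WT library and the second was below all 3, so the groups overlapped. The fitted log2 fold change was 2.90 (SE 0.94, 95% interval 0.82 to 4.98) with an adjusted p of 0.049. That call was lost when any library except the second KO library was left out (adjusted p from 0.076 to 0.27), and likewise with robust dispersion (0.21), with no filter on low counts (0.059), by DESeq2 (0.055), by limma on FPKM with no filter (0.38) and with a replicate block (0.14). The log2 fold change was 1.81 without the first KO library (adjusted p = 0.27), 3.46 without the second (adjusted p = 0.0023) and 3.5 without the third WT library (adjusted p = 0.076).

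The close copy Ly6c1, which endothelial cells express strongly, was far more abundant and higher in the libraries labelled KO. It had 13887, 13943 and 12930 counts in those, against 8143, 7729 and 7652 in the libraries labelled WT (log2 fold change 0.60, SE 0.05, adjusted p = 9.6e-06). The 2 coding sequences differ at 9 of 396 bases (97.7% identical), and 32.6% of the 50-base windows of the Ly6c2 transcript also occur in Ly6c1 transcripts. The split of reads between them is therefore uncertain. The first 120 coding bases carry 6 of the differences, in capitals below (GENCODE M21, GRCm38).
Ly6c2: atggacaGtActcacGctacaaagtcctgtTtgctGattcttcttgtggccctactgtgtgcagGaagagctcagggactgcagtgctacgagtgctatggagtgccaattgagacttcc
Ly6c1: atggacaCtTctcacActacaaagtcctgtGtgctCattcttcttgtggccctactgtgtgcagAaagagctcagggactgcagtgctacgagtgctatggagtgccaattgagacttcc
Ly6c1 counts varied little within a group, whereas the Ly6c2 counts of the 3 KO libraries ranged from 10 to 356.

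The 4 resident markers split into a pair that fell and a pair that did not pass the test. Mrc1, the mannose receptor CD206 (ENSMUSG00000026712, chromosome 2, 14229392 to 14332057, plus strand, GRCm38), measured 11.3, 12.3 and 13.4 CPM in the libraries labelled KO and 16.8, 23.3 and 21.5 CPM in those labelled WT. The groups did not overlap, and Mrc1 fell by 0.73 on the log2 scale (SE 0.13, 1.66-fold lower, adjusted p = 0.002). Cd163, the scavenger receptor for haemoglobin bound to haptoglobin (ENSMUSG00000008845, chromosome 6, 124304656 to 124330527, plus strand, GRCm38), measured 12.6, 14.9 and 15.4 CPM in the libraries labelled KO and 21, 17.7 and 18.4 CPM in those labelled WT. Cd163 fell by 0.41 (SE 0.11, 1.33-fold lower, adjusted p = 0.022). It no longer passed once the first KO library (adjusted p = 0.089) or the first WT library (adjusted p = 0.09) was left out, nor by limma on deposited FPKM before rescaling (adjusted p of 0.11 to 0.24).

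Lyve1, a hyaluronan receptor of resident macrophages and of lymphatic endothelium (ENSMUSG00000030787, chromosome 7, 110850607 to 110863239, minus strand, GRCm38), measured 12.6, 11.0 and 13.1 CPM in the libraries labelled KO and 14.4, 10.4 and 12.6 CPM in those labelled WT. The KO values lay within the WT range. Its log2 fold change was -0.02 (SE 0.13, 95% interval -0.32 to 0.27, adjusted p = 0.93). F13a1, the catalytic chain of coagulation factor XIII that macrophages and platelets carry (ENSMUSG00000039109, chromosome 13, 36867178 to 37050244, minus strand, GRCm38), measured 24.1, 24.9 and 22 CPM in the libraries labelled KO and 23.7, 26.6 and 26.0 CPM in those labelled WT. The groups overlapped, with a log2 fold change of -0.10 (SE 0.09, 95% interval -0.30 to 0.09, adjusted p = 0.47). Both intervals exclude a fall as large as that fitted for Mrc1, -0.73. For both genes the sign turned on the deposited FPKM scale, where the median gene lies at 0.15 (Lyve1 0.106 and F13a1 0.037 with a pseudocount of 1).

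Markers of other cells that carry Lyve1, Mrc1 or F13a1 did not all move with them. Among all tested genes 11.5% were higher and 10.5% lower. Of 6 tested lymphatic endothelial genes 2 were higher and 0 lower: Ccl21a, a lymphatic chemokine, at 14.9 ± 0.630 CPM in the libraries labelled KO and 8.09 ± 0.431 CPM in those labelled WT (SD, n = 3 each), and Flt4, the receptor of VEGF-C, with a log2 fold change of 0.60 (adjusted p = 0.012, lost without the first library of either group). The median log2 fold change of this list was 0.01, so its genes did not move together. With any 1 library left out, the fold change ran from -1.34 to -0.70 for Prox1 and from -0.75 to -0.23 for Pdpn. It ran from 0.15 to 0.29 for Mmrn1 and from -0.32 to 0.05 for Reln. None of these passed. The 7 lymphatic genes summed to 31.7 to 34.3 CPM in the libraries labelled KO and 23.5 to 25.4 CPM in those labelled WT. Their part in the Lyve1 level was not tested. For sinusoidal endothelium and resident macrophages of the liver, 0 of 4 tested genes passed. These 4, Timd4, Vsig4, Cd5l and Stab2, also stand in the wider resident and scavenger lists below, so the count cannot speak for liver alone. The 7 listed summed to 3.52 to 4.87 CPM in the libraries labelled KO against 3.8 to 4.69 CPM in those labelled WT. Of these 7, 2 had 0 counts in all KO libraries, whereas each had counts in some WT library. Clec4f, which defines Kupffer cells, had 0 counts in all 3 libraries labelled KO and 0, 20 and 4 in those labelled WT, too few to be tested. Of 4 tested platelet genes 0 passed, and the 6 listed summed to 6.95 to 9.75 CPM in the libraries labelled KO and 7.59 to 10.1 CPM in those labelled WT.

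Counts per Adgre1 count within a library show how far each marker departed from the general macrophage marker, without any scaling between libraries. Plac8 had 0.531, 0.517 and 0.536 counts per Adgre1 count in the libraries labelled KO and 1.27, 1.37 and 1.82 in those labelled WT. The groups were far apart, with a log2 difference of -1.48. Lyve1 had 3.17, 3.19 and 3.95 per Adgre1 count in the libraries labelled KO and 2.45, 1.51 and 2.12 in those labelled WT, a difference of 0.78. F13a1 had 6.05, 7.21 and 6.62 in the libraries labelled KO against 4.05, 3.84 and 4.38 in those labelled WT, a difference of 0.70. In these 3 ratios the groups did not overlap, and each gave the smallest p that 3 libraries against 3 allow in a two-sided exact permutation test (p = 0.1, and 0.3 adjusted over the 9 ratios), so this design cannot reach 0.05. With Csf1r in place of Adgre1 the differences were -1.56, 0.696 and 0.609 in the same order. Adgre1 itself had a log2 fold change of -0.80 and Csf1r of -0.71, so an unchanged gene has a higher ratio to either in KO libraries. Lyve1 (-0.02) and F13a1 (-0.10) changed little, and their higher ratios restate the fall of the denominator. How many other genes separate the groups by this ratio was not counted. Lyz2 (0.01), Mrc1 (0.07) and Csf1r (0.09) differed in their ratio to Adgre1 by less than the spread between libraries, with exact p of 0.7 to 1 and a sign that turned under some alternatives. Cd163 (0.39), Cd14 (-0.63) and Ly6c2 (2.75) overlapped between the groups, with exact p of 0.2, 0.7 and 0.2.

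**Figure D3:**
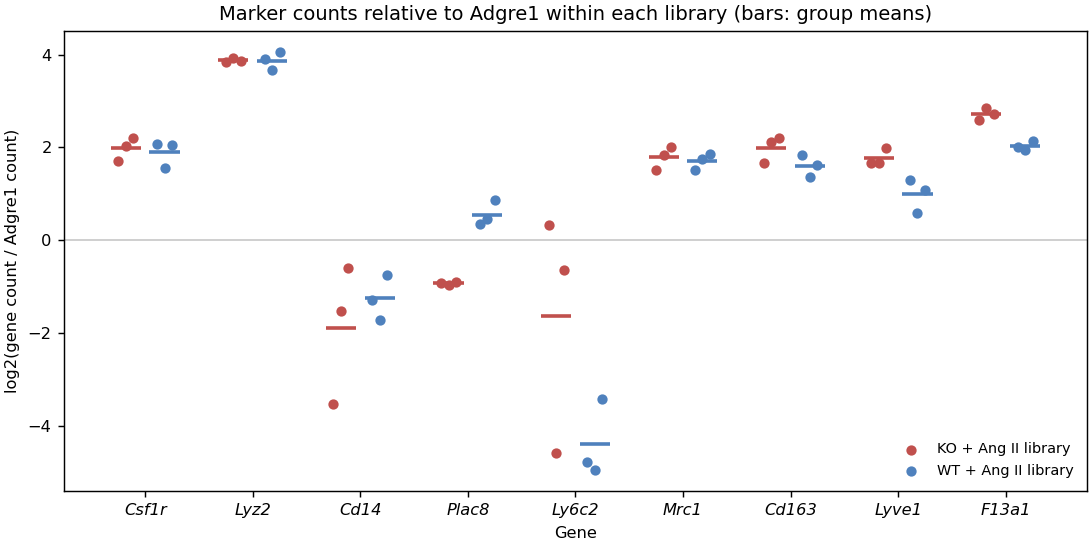
Log2 of each marker's count over the Adgre1 count in the same library, with KO libraries in red left of WT libraries in blue and bars at the group means. The ratio of Plac8 lies lower, and those of Lyve1 and F13a1 higher, in all 3 KO libraries than in any WT library. Adgre1 itself was lower in the KO libraries, which raises the ratio of an unchanged gene.

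The order of the markers by level was set by Lyz2 in both groups. On the per-length FPKM scale, Lyz2 averaged 38.3 ± 4.73 in the libraries labelled KO and 59.5 ± 6.87 in those labelled WT (SD, n = 3 each). After it, in the libraries labelled KO, came Lyve1 (4.0 ± 0.392 FPKM), F13a1 (3.35 ± 0.284), Cd163 (2.49 ± 0.179), Csf1r (2.33 ± 0.111), Mrc1 (1.84 ± 0.0898), Plac8 (1.13 ± 0.156), Adgre1 (1.06 ± 0.143), Ly6c2 (0.855 ± 0.887) and Cd14 (0.671 ± 0.490). In the libraries labelled WT the order after Lyz2 was Plac8 (4.99 ± 1.06 FPKM), Lyve1 (3.67 ± 0.655), Csf1r (3.47 ± 0.497), F13a1 (3.24 ± 0.235), Cd163 (2.99 ± 0.309), Mrc1 (2.77 ± 0.446), Adgre1 (1.65 ± 0.103), Cd14 (1.33 ± 0.445) and Ly6c2 (0.0987 ± 0.0649). In the KO libraries Cd163 and Csf1r, and the neighbours from Plac8 to Cd14, differed by less than the larger of their SDs, as did in the WT libraries the neighbours from Lyve1 to Mrc1 and Adgre1 and Cd14.

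Of 20 other genes of macrophages in general, 4 were lower, 0 higher and 16 did not pass, with a median log2 fold change of -0.33 against -0.02 for all tested genes. That share called is close to the 22% called among all tested genes, of which 10.5% were lower. Mpeg1, which encodes the pore-forming perforin-2, measured 3.37, 2.5 and 2.59 CPM in the libraries labelled KO and 8.43, 8.95 and 7.83 CPM in those labelled WT (log2 fold change -1.57, SE 0.17, adjusted p = 7.3e-05). Ctss, the lysosomal protease cathepsin S, fell by 0.91 (SE 0.12, adjusted p = 0.00034). Aif1 (-1.30, adjusted p = 0.023), the IBA1 protein of macrophages, and C1qc (-0.32, adjusted p = 0.026), a chain of complement C1q, were lower too, but each lost its call when most single libraries were left out (4 of 6 for Aif1, 5 of 6 for C1qc), with adjusted p up to 0.082 and 0.097. Without the third KO library, the first WT library or the third WT library the list had 2 lower members in place of 4. The other C1q chains, named after their values were seen, gave -0.09 for C1qa (95% interval -0.27 to 0.10) and -0.07 for C1qb (-0.27 to 0.14). Cd68, a lysosomal glycoprotein also named after its values were seen, had 5.59 ± 1.01 CPM in the libraries labelled KO and 4.21 ± 0.927 CPM in those labelled WT (adjusted p = 0.22). DESeq2 called 9 of the 20 lower, where it called 31.0% of all genes and 15.5% lower.

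Among 18 other genes of resident macrophages, 5 were lower, 1 was higher and 12 did not pass, with a median of -0.16; among all tested genes 10.5% were lower and 11.5% higher. Mgl2, a galactose-binding lectin, measured 3.23, 3.34 and 2.66 CPM in the libraries labelled KO and 7.27, 8.47 and 7.42 CPM in those labelled WT (log2 fold change -1.33, SE 0.16, adjusted p = 0.00019). Clec10a, the neighbouring lectin gene on chromosome 11 and its close relative, ran the other way at 10.0, 11.5 and 11.0 CPM in the libraries labelled KO against 7.42, 6.90 and 6.87 CPM in those labelled WT (0.62, SE 0.12, adjusted p = 0.0032). Both genes separated the groups completely in opposite directions, where 38.6% of tested genes separated them in either direction. The likeness of the 2 sequences was not measured, and how reads shared by them were counted is not given. Folr2, the folate receptor of perivascular macrophages, fell by 0.87 (SE 0.13, adjusted p = 0.00067), and Cd209g, a lectin of the DC-SIGN family, fell by 2.02 (SE 0.39, adjusted p = 0.0038). The remaining 2 called members, named after their values were seen, were Cd209f (-1.12, adjusted p = 0.017, and 0.061 without the second WT library) and the transcription factor Maf (-0.44, adjusted p = 0.01). Stab1, a scavenger receptor named after its values were seen, had 41.6 ± 2.66 CPM in the libraries labelled KO and 42.4 ± 0.550 CPM in those labelled WT (log2 fold change -0.03, 95% interval -0.18 to 0.13). On the deposited FPKM scale the medians of this list and of the general macrophage list were 0.03 and -0.05, where that of all genes was 0.15.

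None of 14 tested genes of a wider monocyte list passed edgeR's test, 0 of them at an unadjusted p below 0.05, and the list's median was 0.01. DESeq2 also called 0, and limma on FPKM called 1, Smpdl3a (a sphingomyelinase-like enzyme named after its values were seen), the only one of the list it tested. The smallest p values belonged to the lectin genes Clec4a1 (-1.02, adjusted p = 0.19, and 0.026 without the third KO library) and Clec4e (-1.55, adjusted p = 0.26). Next came Chil3, a chitinase-like protein named after its values were seen, with the opposite sign (1.52, adjusted p = 0.27): it had 40, 85 and 25 counts in the libraries labelled KO and 4, 32 and 8 in those labelled WT, which overlap. Ccr2, the chemokine receptor that brings monocytes out of the marrow and into tissue, is named after its values were seen. It measured 2.40, 1.44 and 2.20 CPM in the libraries labelled KO and 2.49, 1.21 and 1.85 CPM in those labelled WT (log2 fold change 0.12, 95% interval -0.64 to 0.87). The listed genes summed to 30.6 to 34.2 CPM in the libraries labelled KO and 28.1 to 35.8 CPM in those labelled WT, most of it from Smpdl3a, at 20.1 ± 0.874 CPM in the libraries labelled KO and 18.2 ± 1.52 CPM in those labelled WT (SD, n = 3 each). Plac8 and this list thus gave different counts of calls, and whether they differ was not tested.

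**Figure D4:**
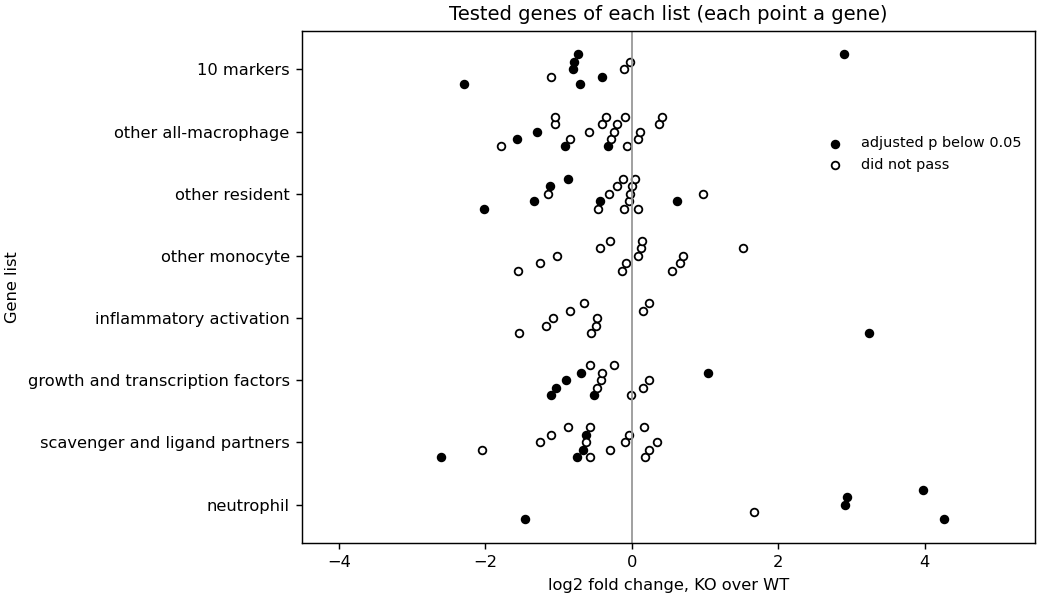
Fitted log2 fold change, KO over WT, of each tested gene in the marker set and in 7 lists, with filled points at an adjusted p below 0.05. Macrophage lists lean to the left of 0, the monocyte list straddles it, and most neutrophil genes lie between 2 and 5; Retnlg, with 0 counts in all WT libraries, is left out.

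Of 14 tested growth factors, their receptors and transcription factors of macrophages, 5 were lower and 1 higher (median -0.45), beside 10.5% lower and 11.5% higher among all tested genes. Csf1, the ligand of the Csf1r product, measured 6.02, 6.40 and 5.79 CPM in the libraries labelled KO and 8.43, 8.88 and 8.63 CPM in those labelled WT, with no overlap (log2 fold change -0.51, SE 0.12, adjusted p = 0.013). Zeb2 (-1.04), Klf4 (-0.90) and Cebpa (-0.70), transcription factors that myeloid cells share with fibroblasts, vessel cells or adipocytes, fell with adjusted p of 0.00012, 4.2e-05 and 0.00018. Irf8 (-1.11, adjusted p = 0.04) and Irf4 (1.04, adjusted p = 0.028), transcription factors named after their values were seen, lost their calls when most single libraries were left out, with adjusted p up to 0.18 and 0.096. Spi1, which encodes the myeloid master factor PU.1 and is named after its values were seen, had 1.98 ± 0.415 CPM in the libraries labelled KO and 2.35 ± 0.416 CPM in those labelled WT (95% interval -0.85 to 0.36). Fibroblast markers, of which 8 of 8 were lower (median -1.66), moved in the same direction, and their part in Csf1 was not tested.

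Activation genes gave 1 large exception. In the inflammatory list, 11 of 17 genes could be tested and 1 passed, while 10 did not. The list's median log2 fold change was -0.56, opposite in sign to the gene that passed. Among all tested genes 11.5% were higher and 10.5% lower. The gene that passed was Il1b, which encodes interleukin-1 beta. Il1b measured 2.02, 1.55 and 2.89 CPM in the libraries labelled KO and 0.268, 0.283 and 0.128 CPM in those labelled WT (log2 fold change 3.24, SE 0.47, 9.45-fold higher, adjusted p = 0.00059). Every KO library was above every WT library by a wide margin. Il1b is made by monocytes, macrophages and neutrophils. The neutrophil genes S100a9 (11.2 ± 0.867 CPM in the libraries labelled KO, 1.48 ± 0.327 CPM in those labelled WT) and Csf3r (5.07 ± 0.765 CPM in KO, 0.659 ± 0.244 CPM in WT) were higher in the same libraries (SD, n = 3 each), and Retnlg had 203, 154 and 85 counts in the libraries labelled KO and 0 in all 3 labelled WT. Their part in the Il1b level was not tested. Cxcl10, an interferon-induced chemokine, had a log2 fold change of -1.54 (adjusted p = 0.17). Of 9 alternative activation genes 4 were tested: Retnla, a resistin-like protein that adipocytes also make, fell by 0.49 (adjusted p = 0.0064), and Tgm2, tissue transglutaminase, rose by 0.25 (adjusted p = 0.0064).

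Scavenger receptors and partners of the markers had 4 of 18 tested members lower and 0 higher (median -0.60), a share called close to the 22% of all tested genes. Mrc2, the relative of Mrc1 that takes up collagen and is also found in fibroblasts, fell by 0.67 (SE 0.15, adjusted p = 0.0081). Cd44, the hyaluronan receptor related to the Lyve1 product, fell by 0.63 (adjusted p = 0.027) and Colec12, a scavenger receptor, by 0.75 (adjusted p = 0.044); both calls were lost when most single libraries were left out, with adjusted p up to 0.1 and 0.16. Fgb, a fibrinogen chain made in hepatocytes, fell by 2.61 (adjusted p = 0.00044), in libraries where 6 of 7 hepatocyte genes, Fgb included, were lower. Of 12 genes of lipid-handling macrophages, 3 were higher and 3 lower, beside 11.5% higher and 10.5% lower among all tested genes. Spp1, osteopontin, measured 0.674, 0.233 and 0.441 CPM in the libraries labelled KO and 2.52, 1.51 and 6.65 CPM in those labelled WT (log2 fold change -2.98, SE 0.57, adjusted p = 0.0036). Without the third WT library, the highest, it was -2.16 (adjusted p = 0.022). Ctsd (0.89) and Lpl (0.43) rose and Fabp4 fell by 0.15, with adjusted p of 0.002 or less. Their group means were 257.8 CPM or more, where Adgre1 averaged 3.58 CPM in KO libraries and 6.23 CPM in WT libraries. Which cells made these transcripts was not tested.

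Mast, dendritic, T, NK and B cell markers had 0 calls higher, beside 11.5% higher and 10.5% lower among all tested genes. Of 5 tested mast cell genes 4 were lower (median -1.14), among them the protease Mcpt4 at 1.74 ± 0.757 CPM in the libraries labelled KO and 6.35 ± 1.40 CPM in those labelled WT. Dendritic cell genes had 0 of 7 called, T and NK cell genes 1 of 4 (lower) and B cell genes 1 of 5 (lower). The 6 B cell genes summed to 8.18 to 10.3 CPM in the libraries labelled KO and 22.9 to 25.8 CPM in those labelled WT. The 8 T and NK cell genes summed to 0.52 to 0.771 CPM in KO libraries and 1.66 to 2.17 CPM in WT libraries. For 8 dendritic cell genes the sums were 12.5 to 14.1 CPM in KO and 14.9 to 19.7 CPM in WT. The part of these cells in the Plac8 level was not tested. Of 7 tested adipocyte genes 2 were higher and 3 lower.

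PU.1 binds purine-rich DNA with a GGAA core, and promoters of macrophage genes often carry such sites. Promoter windows of 250 bases before to 50 after a RefSeq start (GRCm38.p6) were available for 6 markers, and the letters GAGGAA were searched on both strands. They occur in 28.3% of the 32851 promoter windows of the table. They were present in windows of Mrc1, F13a1 and Ly6c2 and at 1 of the 2 starts of Plac8, and absent from those of Lyz2 and Cd163. Windows of the marker that fell most, one that fell less and one that did not pass the test are shown, with GAGGAA or its reverse complement in capitals. The C/EBP-like letters TTGCNNAA, found in 10.8% of windows, occurred in 1 window of Plac8, at its other start, and in none of the other markers. A match is a description of the letters and says nothing of binding.
Plac8, chr5:100572156-100572455, minus strand: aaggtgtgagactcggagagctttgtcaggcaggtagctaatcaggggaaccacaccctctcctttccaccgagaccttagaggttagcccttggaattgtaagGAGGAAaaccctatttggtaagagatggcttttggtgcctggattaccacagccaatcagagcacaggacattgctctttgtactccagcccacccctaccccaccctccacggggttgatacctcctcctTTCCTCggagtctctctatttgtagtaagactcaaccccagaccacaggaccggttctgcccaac
Mrc1, chr2:14229164-14229463, plus strand: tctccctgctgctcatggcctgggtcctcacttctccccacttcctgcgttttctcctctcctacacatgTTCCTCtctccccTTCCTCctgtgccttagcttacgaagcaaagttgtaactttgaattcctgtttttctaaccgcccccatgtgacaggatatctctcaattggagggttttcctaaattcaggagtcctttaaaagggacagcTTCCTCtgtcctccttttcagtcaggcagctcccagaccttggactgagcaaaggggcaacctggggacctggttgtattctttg
F13a1, chr13:37050195-37050494, minus strand: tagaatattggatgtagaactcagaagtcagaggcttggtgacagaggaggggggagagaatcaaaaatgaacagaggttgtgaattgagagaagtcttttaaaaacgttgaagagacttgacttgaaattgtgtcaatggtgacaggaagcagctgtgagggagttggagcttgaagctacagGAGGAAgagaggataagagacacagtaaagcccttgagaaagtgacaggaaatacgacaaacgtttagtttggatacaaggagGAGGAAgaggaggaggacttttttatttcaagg
Plac8, which fell most, and F13a1, which did not pass the test, each had 2 matches in these windows, and Mrc1 had 3.

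Likeness of pattern over the 6 libraries was described by the distance between centred log2 CPM profiles, among 111 tested genes of the macrophage lists. The nearest gene was Cebpa for Adgre1 (0.26) and Lyz2 (0.27), Ctss for Csf1r (0.27), Folr2 for Mrc1 (0.33), Itgam for Cd163 (0.20), Tyrobp for Lyve1 (0.27) and Fabp4 for F13a1 (0.16). Plac8 was nearest to Cd209g, at 0.63. No gene came close to Cd14 (1.33, to Cd209f) or to Ly6c2 (3.43, to Ccl4).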

How the data were processed

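Poly(A) RNA of 6 libraries was sequenced as paired ends, per the labels' protocols, which mention adipose RNA where the tissue label says aorta. The authors deposited whole-number gene counts and FPKM in 1 table. Bowtie 0.12.2, HISAT2 2.0 and mm8 are named, with no role, per the submitters' processing notes. How reads were counted and whether strand was used: not given in the sources used here. Of 33815 shared genes 91.1% had the GENCODE M21 position on GRCm38, and so did 9 of the 10 markers, so positions are given as GRCm38. Columns of other samples numbered 0, and 0 rows had no gene name.

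The test of the counts was that of edgeR 4.0.16 under R 4.3.3: filterByExpr, TMM scaling, quasi-likelihood F-test on genotype alone, two-sided, Benjamini-Hochberg over 16620 genes, threshold 0.05. CPM is TMM-scaled, and an SE is the log2 fold change over the root of F. Between 33% and 34.9% of values from 1 to 40 were multiples of 4, where 25% would be if values were evenly spread; the reason was not tested, and counts were used as deposited. Ratios to Adgre1 used counts with 0.5 added. Alternatives were DESeq2 1.42.0, limma 3.58.1 on log2(FPKM + 1) or (FPKM + 0.1) with a mean FPKM of at least 1 or no filter or median-ratio scaling, DESeq2 size factors, no filter or a mean CPM of at least 1, robust dispersion, a replicate block, counts divided by 4, mitochondrial genes removed, and each library left out. The markers, lists and naming rule (the markers, up to 4 genes per list with the smallest p (2 where fewer than 3 passed), genes with 0 counts in a group, close copies, and the nearest in pattern) were chosen with earlier results of these data known. On simulated counts for KO against WT over 16620 genes, 20.5% of 200 genes changed 1.5-fold and 66% of 200 changed 2-fold were recovered, with 1 and 9 false calls. The changed genes were drawn only from those with a mean CPM above 1, and the simulated spread followed the dispersion trend. Recovery of genes at lower levels was therefore not measured. Figures were drawn with matplotlib 3.10.9. Counts set the precision, and intervals cover only what the fit models.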

Additional observations from a re-analysis of the deposited data

How the results depend on the processing

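The falls of Adgre1, Lyz2 and Plac8 kept direction and call in all 18 alternatives. Csf1r (adjusted p = 0.052) and Mrc1 (0.068) missed the threshold only in limma on FPKM with no filter. The count of changed markers, 7, was 3 in that setting and 5 to 7 with 1 library left out. Among the other general macrophage genes DESeq2 called 9, where it called 31.0% of all tested genes. Unfiltered limma called 2, against 4 in edgeR, and edgeR called 2 to 4 with 1 library left out. The monocyte list had 1 call in limma on FPKM at either pseudocount and 0 to 1 with 1 library left out, against 0. The resident list gave 4 to 7 calls, against 6.

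Lyve1 turned sign on the FPKM scale, at 0.106 (pseudocount 1, with or without a filter) and 0.132 (0.1), and at 0.048 and 0.09 without the second KO or first WT library. F13a1 turned to 0.037 and 0.047 on the FPKM scale. The cause was not tested. Rescaling FPKM by median ratios removed both turns. Of all genes called, 79.5% were higher in limma on FPKM (2633 higher, 678 lower), 50.7% after that rescaling and 52.1% in edgeR. Ratios to Adgre1 near 0 turned: Lyz2 to -0.078 per Csf1r, -0.036 on FPKM and -0.012 with 12 counts added, and Mrc1 to -0.013 per Csf1r. With 1 library left out, these differences ran from -0.080 to 0.22 for Csf1r, -0.094 to 0.098 for Lyz2, -0.038 to 0.21 for Mrc1 and -1.271 to 0.201 for Cd14, and the Lyve1 fold change from -0.139 to 0.09.

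Same-numbered libraries shared only a number: deviations from the group means correlated at 0.024, -0.009 and 0.018. A fit with a replicate block called 3255 genes against 3658 and 6 markers against 7; Ly6c2 lost its call (2.15, adjusted p = 0.14). Within same-numbered pairs the Plac8, Lyve1 and F13a1 ratios to Adgre1 differed by -1.48, 0.782 and 0.695 (exact p = 0.25, the smallest 3 pairs allow). Ly6c2 and Cd14 varied most between libraries of a group, from 10 to 356 and from 24 to 160 counts in the libraries labelled KO.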
